A study of Mus musculus with 6 samples.

Results

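MHC class I molecules carry peptides cut from a cell's own proteins to the cell surface, where CD8 T cells read them. The 10 genes of this pathway described here were followed in cells purified from the brains of mice that lack *Npc1*: the heavy chains *H2-K1* and *H2-D1*, the light chain *B2m*, the peptide transporter subunits *Tap1* and *Tap2*, the loading factor *Tapbp*, the immunoproteasome subunits *Psmb8*, *Psmb9* and *Psmb10*, and the transactivator *Nlrc5*. They were found by symbol in the expression table, where they are 10 of 55492 genes, and 9 of them were expressed enough to be tested among 15245 genes. The rule used names and no measured value, although the members were chosen with earlier results of these data known.

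Proteins are cut by the proteasome, whose ordinary catalytic subunits can be exchanged for the immunoproteasome subunits. The peptides are pumped into the endoplasmic reticulum by the transporter TAP and loaded with the help of tapasin, the product of *Tapbp*, onto a heavy chain paired with beta-2 microglobulin. The pathway is induced by interferons, and NLRC5 drives the promoters of its genes. In the healthy brain, microglia and endothelial cells carry most of these transcripts, while oligodendrocytes and neurons hold little.

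The 6 samples were 3 wild-type (WT) and 3 *Npc1*-/- replicates from mice at P16, with 1 library of poly(A) RNA per replicate. The methods call them biological replicates and do not say whether each came from 1 mouse. A replicate is called a mouse here. Cells were dissociated from whole brain and pulled out with magnetic microbeads against O4, a lipid antigen of late oligodendrocyte progenitors and immature oligodendrocytes, and no mouse was treated. Per the study's methods, the *Npc1* allele is the nih null allele, and *Npc1*-/- mice were F1 hybrids of heterozygous parents on BALB/cJ and C57BL6/J backgrounds. *Npc1* encodes the lysosomal cholesterol exporter lost in Niemann-Pick type C disease, and the comparison asks how its loss changes gene expression in these cells. Such hybrids are expected to carry MHC haplotypes of both strains, while reads were mapped to a C57BL/6J reference, so the values of *H2-K1* and *H2-D1* may miss part of the BALB/cJ allele's reads, which was not tested. The methods describe the mice used as genotyped littermates.

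Expression is given as TPM divided by a size factor (scaled TPM). The divisor was 1.295 for WT replicate 1, 1.106 for replicate 2 and 1.039 for replicate 3. For *Npc1*-/- replicates 1 to 3 it was 1.102, 0.855 and 0.727, so the lowest divisors belonged to mutants. *Mbp* alone took from 18.8% to 26.1% of TPM, and whether this share accounts for the spread of the size factors was not tested. *Npc1* itself had a TPM of 45.5 to 53.3 in WT mice, against 3.16 to 4.42 in *Npc1*-/- samples, with a log2 fold change of -3.17 (SE 0.12, adjusted p = 0.000398, limma). Depth, estimated from the spacing of low FPKM values, was 40500000 to 50250000 fragments. *Xist* was at a TPM of 15.57 in *Npc1*-/- replicate 3 and did not pass 0.01 elsewhere, so that mouse was the only female by this transcript. Over all genes, 0.813% were called, which required both an adjusted p under 0.05 and a log2 fold change of 0.1 or more in size. The oligodendrocyte markers *Olig1*, *Olig2* and *Sox10* were present in every sample, with scaled TPM from 122 to 575.

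The promoters of the classical class I genes are shown first, since they share a regulatory motif. Of the 10 genes, 8 had a window in the RefSeq promoter table (GRCm38.p6, 250 bases before to 50 after the start), and *Tap2* and *Nlrc5* had none. Bases are counted from the RefSeq start as position 0, and upstream bases are negative. *B2m*, *H2-K1* and *H2-D1* each held the letters TGACG followed, after 20 other bases, by ATTGG on the strand of the gene. In class I promoters these letters belong to the X2 box and the Y box of the SXY module, a row of boxes to which NLRC5 is known to be recruited through RFX, CREB and NF-Y factors. The S and X1 boxes of the module lie upstream of TGACG and were not searched for. The X2 and Y letters are in capitals in these 30-base stretches, which lie at chr2:122147609-122147638 on the plus strand (position -78), chr17:34000359-34000388 on the minus strand (position -41) and chr17:35262993-35263022 on the plus strand (position -101):
B2m: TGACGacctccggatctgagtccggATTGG
H2-K1: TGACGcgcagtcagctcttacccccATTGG
H2-D1: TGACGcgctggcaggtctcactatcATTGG
*H2-K1* and *H2-D1* shared 23 of the 30 bases and 13 of the 20 between the capitals. *B2m* shared 13 bases of 30 with *H2-K1* and 12 with *H2-D1*, the 10 capitals included. The spaced pair of letters was present, on either strand, in 0.0953% of 32544 promoter windows, belonging to 27 genes, among them *H2-M3*. No other of the 8 matched members held it. The *H2-D1* stretch lies upstream of the RefSeq start but within the GENCODE bounds of the gene.

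The longer upstream stretches of *B2m* and *H2-K1* show where these boxes lie relative to an interferon-type element. In capitals are GAAA repeated after 2 bases of any kind, and the 1 base shorter GAANNGAAA, which are forms of the interferon-stimulated response element, with TGACG and ATTGG, each searched on both strands. The stretches are chr2:122147437-122147686 (plus strand) and chr17:34000348-34000597 (minus strand), the 250 bases before each start:
B2m: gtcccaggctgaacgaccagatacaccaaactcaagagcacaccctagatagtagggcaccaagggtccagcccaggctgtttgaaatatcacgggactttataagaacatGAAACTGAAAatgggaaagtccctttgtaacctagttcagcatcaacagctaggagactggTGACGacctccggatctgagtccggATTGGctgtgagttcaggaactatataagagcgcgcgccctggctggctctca
H2-K1: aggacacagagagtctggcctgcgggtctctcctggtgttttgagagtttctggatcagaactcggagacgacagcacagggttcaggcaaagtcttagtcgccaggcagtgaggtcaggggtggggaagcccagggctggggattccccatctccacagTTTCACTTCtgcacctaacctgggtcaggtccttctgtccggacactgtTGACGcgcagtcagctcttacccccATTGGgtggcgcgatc
*B2m* held the first form at position -139. *H2-K1* held GAANNGAAA on the other strand at position -90 and *H2-D1* at position -150. The first form was present in 3.45% of all promoter windows and GAANNGAAA in 7.57%. TGACG alone was in 20.9% and ATTGG alone in 37.4% of the windows. These matches describe letters and not binding in these cells.

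None of the 9 tested genes differed between genotypes past the thresholds (limma), against 0.813% of all genes tested. The log2 fold changes, *Npc1*-/- against WT, ran from -0.41 (*Psmb9*) to 0.31 (*H2-K1*), with a median of -0.0016 beside 0.0081 over all genes. By sign, 4 were higher and 5 lower in *Npc1*-/- samples, and those 4 (*B2m*, *H2-K1*, *H2-D1* and *Psmb10*) were negative on TPM as deposited, where the median of all genes was -0.33. At an unadjusted p below 0.05 there was 1 gene, *Tap2*, where 22.2% of all genes lay below that value. The values of each mouse follow, by role in the pathway.

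**Figure D1:**
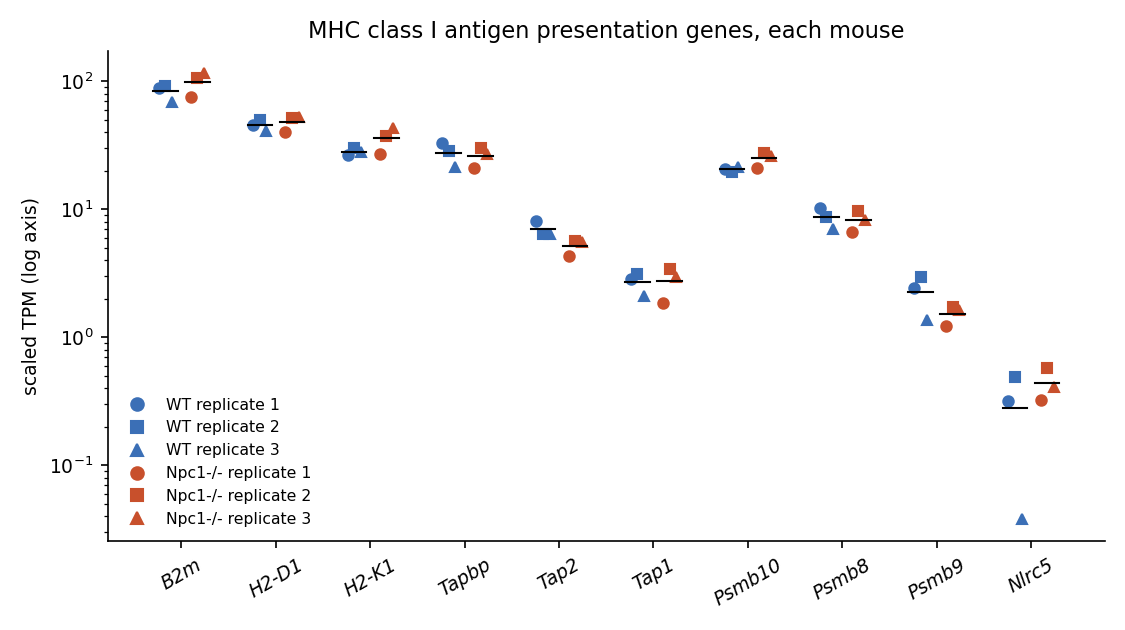
Scaled TPM of the 10 genes in each mouse on a log axis, WT in blue and Npc1-/- in orange, with a symbol per replicate and a black line at each group mean. Tap2 is the only gene whose groups do not overlap, and Npc1-/- replicate 1 (circle) is the lowest mutant in all 10 genes.

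The light chain *B2m*, at chr2:122147686-122153083 on the plus strand, was the most abundant of the 10. In the order of replicates 1 to 3, its scaled TPM was 88.8, 92.0 and 69.6 in WT mice and 75.6, 106.2 and 116.3 in mutants, and later values keep that order. *Npc1*-/- replicates 2 and 3 lay above every WT sample and replicate 1 below 2 of them, so the groups overlap. The means were 83.5 ± 12.1 and 99.4 ± 21.2 (SD, n = 3 each), and the log2 fold change was 0.24 (SE 0.18, 95% interval -0.20 to 0.67, adjusted p = 0.506, limma). *B2m* has a single annotated transcript, so its fragments could be counted back, and 1382 to 2217 fragments lay behind each value.

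*H2-K1* and *H2-D1* are the classical heavy chains, which bind the peptide. *H2-K1* (chr17:33996017-34000347, minus strand) had a scaled TPM of 26.6, 30.4 and 27.9 in WT mice, against 27.2, 37.3 and 43.1 in *Npc1*-/- samples. The WT mice lay close together, at 28.3 ± 1.93, and 2 of the 3 mutants lay above all of them, at a group mean of 35.8 ± 8.05 (SD, n = 3). The log2 fold change of 0.31 (SE 0.17, 95% interval -0.08 to 0.71) was the highest of the group, with an adjusted p of 0.326 (limma).

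*H2-D1* (chr17:35262730-35267499, plus strand) had a scaled TPM of 45.5, 49.99 and 40.7 in WT mice, against 40.1, 51.8 and 52.9 in *Npc1*-/- samples. The groups overlap, and the log2 fold change was 0.08 (SE 0.13, 95% interval -0.23 to 0.40, adjusted p = 0.782). *H2-D1* exceeded *H2-K1* in each of the 6 mice. *H2-K1* made up 36.9%, 37.8% and 40.7% of the pair in WT and 40.4%, 41.9% and 44.9% in *Npc1*-/- samples, with means of 38.4% ± 1.99 and 42.4% ± 2.29. This share was computed after the values had been seen and was not tested.

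*B2m* over the sum of *H2-K1* and *H2-D1* was 1.23, 1.14 and 1.01 in WT mice and 1.12, 1.19 and 1.21 in mutants. This ratio stayed between 1.01 and 1.23 while *B2m* itself ranged from 69.6 to 116.3. Of the windows of 1 read length in *H2-D1* transcripts, 1.31% were identical in another gene (*H2-Q1*), and of those of *H2-K1* none were. At 50 bases the shares were 12.8% and 9.63%, so a small part of the reads of these paralogs may be split between genes.

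*Tap1* and *Tap2* encode the paired subunits of the peptide pump, and *Tapbp* encodes tapasin, which holds the empty heavy chain beside it. *Tap2* (chr17:34203527-34216321, plus strand) had a scaled TPM of 8.18, 6.37 and 6.41 in WT mice, against 4.34, 5.63 and 5.59 in *Npc1*-/- samples. It is the only gene of the 9 in which every mutant lay below every WT mouse, where 14.2% of all genes had groups apart in that direction. The means were 6.99 ± 1.03 and 5.18 ± 0.732 (SD, n = 3), with a log2 fold change of -0.40 (SE 0.15, 95% interval -0.75 to -0.05). The difference did not pass correction over all genes, with an adjusted p of 0.176 (limma) and an unadjusted p of 0.0309. An exact two-sided permutation test over the mice gave p = 0.1, the smallest it can give with 3 against 3.

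*Tap1* (chr17:34187553-34197225, plus strand), the partner of *Tap2* in the same pump, had a scaled TPM of 2.88, 3.14 and 2.12 in WT mice, against 1.86, 3.43 and 2.96 in *Npc1*-/- samples. Its log2 fold change was -0.0016 (SE 0.23, 95% interval -0.53 to 0.53, adjusted p = 0.998). The intervals of *Tap1* and *Tap2* overlap, and whether the subunits differ from each other was not tested. *Tap2* exceeded *Tap1* in every mouse on the TPM scale.

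*Tapbp* (chr17:33915899-33929292, plus strand) had a scaled TPM of 33.2, 28.5 and 21.5 in WT mice, against 21.0, 30.1 and 27.1 in *Npc1*-/- samples. The spread within each genotype was wider than the gap between them, at 27.7 ± 5.89 against 26.1 ± 4.65 (log2 fold change -0.08, SE 0.19, 95% interval -0.53 to 0.37, adjusted p = 0.849). *Tapbp* shares 904 exon bases with the antisense gene *Gm19412* on the other strand, which had a mean TPM of 6.43. It also shares 149 exon bases with *Zbtb22* on the same strand, which had a mean TPM of 10.1. Of the windows of 1 read length in *Tapbp* transcripts, 9.98% are found in *Gm19412* too, and at 50 bases 23.2% are found in other genes. The use of strand in counting is not stated, so part of this value may belong to those genes.

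The 3 immunoproteasome subunits take the places of 3 ordinary catalytic subunits, *Psmb8* that of *Psmb5*, *Psmb9* that of *Psmb6* and *Psmb10* that of *Psmb7*. *Psmb8* (chr17:34197721-34201454, plus strand) had a scaled TPM of 10.3, 8.69 and 7.0 in WT mice, against 6.72, 9.74 and 8.28 in *Npc1*-/- samples. The groups overlap, with a log2 fold change of -0.07 (SE 0.18, 95% interval -0.49 to 0.35, adjusted p = 0.872).

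*Psmb9* (chr17:34181987-34187764, minus strand) had a scaled TPM of 2.45, 2.99 and 1.38 in WT mice, against 1.23, 1.73 and 1.64 in *Npc1*-/- samples. WT replicate 3 lay among the mutants and the other two WT mice above them. The log2 fold change of -0.41 (SE 0.25, 95% interval -0.99 to 0.18, adjusted p = 0.396) was the lowest of the group and had the widest interval. At this level a value rests on between 8 and 260 fragments, depending on which annotated transcript is used. *Psmb9* and *Tap1* lie on opposite strands and share 212 exon bases at their starts, and 1.44% of the read-length windows of *Psmb9* also occur in *Tap1*.

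*Psmb10* (chr8:105935735-105938444, minus strand) lies outside the MHC on chromosome 17. Its scaled TPM was 20.6, 19.8 and 21.4 in WT mice and 21.2, 27.5 and 26.3 in mutants. The WT mice were close, at 20.6 ± 0.839, and *Npc1*-/- replicate 1 lay within them while the other two mutants lay above (25.01 ± 3.33, SD, n = 3). The log2 fold change was 0.27 (SE 0.11, 95% interval -0.0044 to 0.54, adjusted p = 0.231).

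The share of each immunoproteasome subunit in the pair with its ordinary counterpart does not depend on the size factor. *Psmb8* made up 10.7%, 9.42% and 6.96% of its pair in WT and 6.92%, 9.30% and 8.89% in *Npc1*-/- samples. *Psmb9* made up 1.78%, 2.03% and 0.960% in WT mice and 0.856%, 1.06% and 1.15% in mutants. *Psmb10* made up 19.2%, 18.8% and 18.9% in WT mice and 18.4%, 22.3% and 21.9% in mutants. The ordinary subunit was thus the main one in every pair and every mouse, and the 3 shares kept their order in all 6 mice.

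Between genotypes, the *Psmb8* share was 9.01% ± 1.88 in WT and 8.37% ± 1.28 in *Npc1*-/- samples (SD, n = 3; exact two-sided permutation p = 0.5). The *Psmb9* share was 1.59% ± 0.561 and 1.02% ± 0.153 (exact permutation p = 0.3), and the *Psmb10* share 19.0% ± 0.225 and 20.9% ± 2.12 (exact permutation p = 0.4). Adjusted over the 3 pairs, each exact p was 0.5, and 0.1 is the smallest that 3 against 3 allows before adjustment. The direction of the *Psmb8* share turned when either WT replicate 1 or *Npc1*-/- replicate 1 was left out. The difference was -0.643 percentage points with all mice, 0.177 without WT replicate 1 and 0.0833 without *Npc1*-/- replicate 1.

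**Figure D2:**
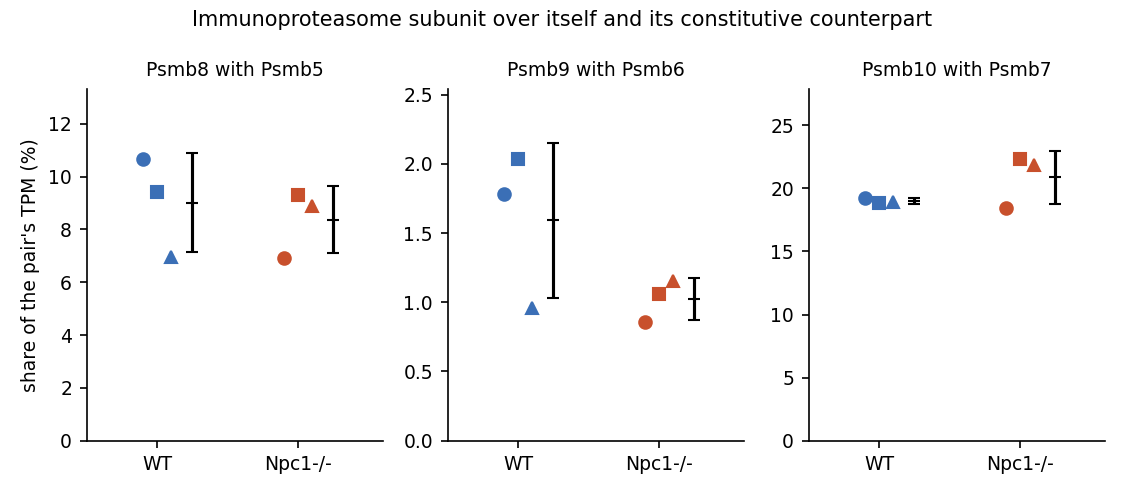
Share of each immunoproteasome subunit in the TPM of itself and its ordinary counterpart, in percent, for each mouse, with the mean and SD of 3 mice beside the points. Each panel has its own axis from 0; the shares lie near 9% for Psmb8, 1% to 2% for Psmb9 and 18% to 22% for Psmb10, and the groups overlap in each panel.

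*Nlrc5* (chr8:94434356-94527272, plus strand), the transactivator of class I promoters, had a mean TPM of 0.357, below the limit of 0.5 for the test. Its scaled TPM was 0.317, 0.488 and 0.0385 in WT mice and 0.327, 0.573 and 0.413 in mutants. WT replicate 3 had the lowest value and the other 5 mice overlap. An exact two-sided permutation test gave p = 0.4. Fitted without the limit on TPM, the log2 fold change was 0.30 with an adjusted p of 0.674 (limma), and the depth behind it was at most 119 fragments in a mouse.

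**Figure D3:**
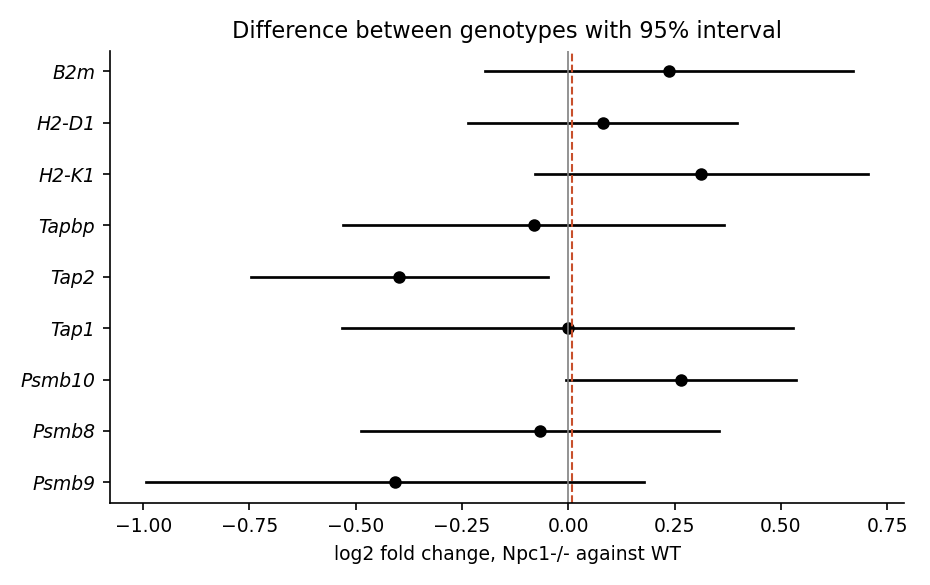
Log2 fold change of the 9 tested genes, Npc1-/- against WT, with 95% intervals from limma (bars). The grey line marks no difference and the dashed line the median of all genes (0.0081). Every interval but that of Tap2 reaches over 0.

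The 10 genes differed widely in level. *B2m* stood above 93.9% of all genes tested, *H2-D1* above 87.8%, *H2-K1* above 82.6%, *Tapbp* above 79.8% and *Psmb10* above 76.6%. *Psmb8* lay near the middle, above 52.6%, followed by *Tap2* (44.7%), *Tap1* (27.4%) and *Psmb9* (20.9%). On the scaled TPM scale the ranges over the 6 mice do not overlap between *B2m* and *H2-D1*, between *Psmb10* and *Psmb8*, between *Tap2* and *Tap1*, or between *Psmb9* and *Nlrc5*. Neighbours whose ranges overlap are *H2-D1* and *H2-K1*, *H2-K1* and *Tapbp*, *Tapbp* and *Psmb10*, *Psmb8* and *Tap2*, and *Tap1* and *Psmb9*. The genes for display at the surface were thus more abundant than those for peptide transport, the loading factor *Tapbp* apart.

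On scaled TPM, the mice of a genotype differed in the same way in most of the 9 tested genes. *Npc1*-/- replicate 1 was the lowest mutant in 9 of 9, where it was the lowest in 37.1% of all genes. WT replicate 3 was the lowest WT mouse in 6 of 9 (34.8% of all genes), and *Npc1*-/- replicate 2 was the highest mutant in 6 of 9 (24.4% of all genes). The order of the mutants depended on the size factors. On TPM as deposited, *Npc1*-/- replicate 1 was the lowest mutant only for *H2-K1*, *B2m* and *Tap1*. For *H2-D1*, *Tap2*, *Tapbp*, *Psmb8*, *Psmb9* and *Psmb10* the lowest mutant was then replicate 3. The summed scaled TPM of the 10 genes was 239, 242 and 198 in WT mice and 199.5, 274 and 285 in mutants. On this scaled sum, *Npc1*-/- replicate 1 was at the level of WT replicate 3, and the other mutants were above every WT mouse. This too depended on the size factors. *B2m*, the most abundant gene of the sum, had a TPM as deposited of 115.1, 101.8 and 72.3 in WT mice. In mutants it was 83.3, 90.8 and 84.5, each below WT replicates 1 and 2.

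Without *Npc1*-/- replicate 1, the 9 genes had a median of 0.21 on the log2 fold change scale, and *H2-K1* was at 0.50 with an adjusted p of 0.0789, *Psmb10* at 0.38 with 0.0865 and *B2m* at 0.42 with 0.153 (limma, the genes all fitted together). The median was 0.060 without WT replicate 1 and 0.093 without WT replicate 2, also above the -0.0016 with all mice. The remaining omissions moved the group the other way. The median was -0.15 without *Npc1*-/- replicate 2, -0.14 without WT replicate 3 and -0.067 without *Npc1*-/- replicate 3. Without *Npc1*-/- replicate 3, *H2-K1* was at 0.17 (adjusted p = 0.569) and *B2m* at 0.11 (adjusted p = 0.784). No gene of the group was called with any mouse left out. The size factor of *Npc1*-/- replicate 1 was 1.102, against 0.855 and 0.727 in the other two mutants.

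**Figure D4:**
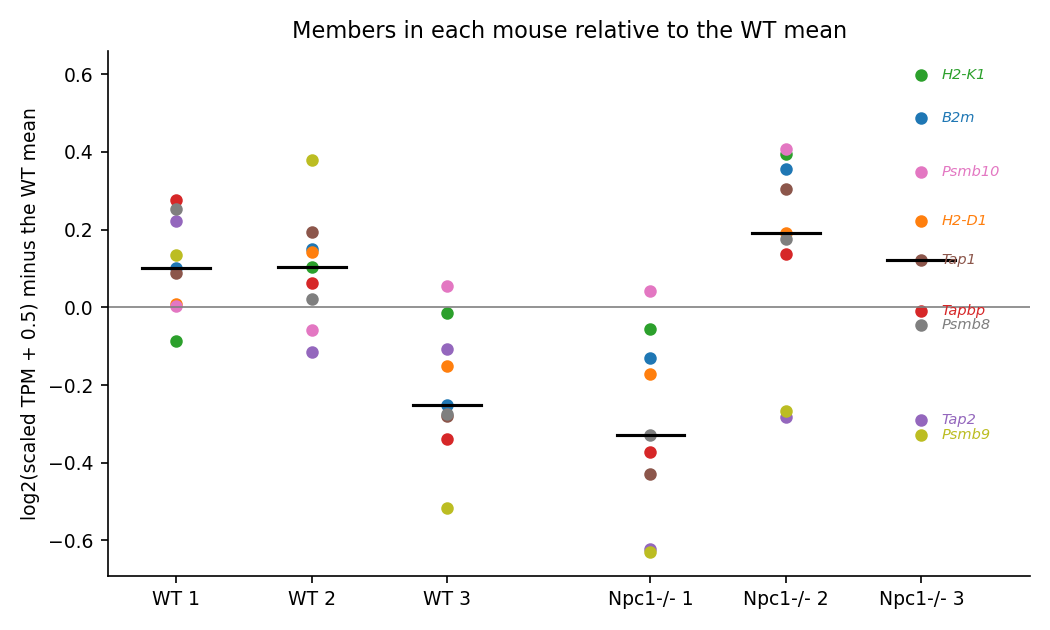
Each point is 1 of the 9 tested genes in 1 mouse, as log2(scaled TPM + 0.5) minus the mean of the 3 WT mice, and the black bars are medians over the genes. WT replicate 3 and Npc1-/- replicate 1 lie mostly below 0, and H2-K1, B2m and Psmb10 are the 3 highest in Npc1-/- replicates 2 and 3.

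Interferon-responsive genes, measured in the same libraries with the same size factors, mostly had the same lowest mutant. Of 19 tested genes of the interferon response, 18 were lowest among mutants in *Npc1*-/- replicate 1 (37.1% of all genes). Among WT mice, 15 were lowest in replicate 3 (34.8% of all genes). This was not particular to interferon genes. On scaled TPM, *Npc1*-/- replicate 1 was also the lowest mutant in 10 of 12 microglia, 8 of 10 endothelial and 7 of 8 astrocyte markers. In these lists too the lowest mutant depended on the size factors. On TPM as deposited, replicate 3 was the lowest mutant for *Ifitm3* (39.1, 41.8 and 32.9), *Cldn5* (246, 231 and 170) and *Gja1* (32.9, 30.2 and 26.5). Replicate 1 stayed the lowest for others, such as *C1qa* (24.2, 32.4 and 34.4). On scaled TPM, replicate 1 was the lowest in 2 of 10 oligodendrocyte lineage markers and 1 of 11 partners of peptide loading. None of the 19 passed the thresholds, 4 were higher and 1 was lower at an unadjusted p below 0.05 (10.6% and 11.6% of all genes), and the median log2 fold change was 0.02. *Ifit3*, an interferon-induced protein, had the largest difference, with a scaled TPM of 2.17, 2.88 and 2.22 in WT mice, against 6.25, 16.3 and 16.0 in *Npc1*-/- samples. All mutants lay above all WT mice, at a log2 fold change of 2.08 (SE 0.35, adjusted p = 0.0503, limma), and replicate 1 was the lowest mutant here too. In this list groups were apart in 3 genes with mutants higher and in 1 with mutants lower, beside 13.3% and 14.2% of all genes. The gene at the other end was *Ifi35* at -0.56 (adjusted p = 0.215), and the most abundant of the list, *Ifitm3* and *Ifi27*, were at -0.17 and 0.12.

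Regulators of the class I promoters were examined as a list of 26 genes, of which 25 were tested and none passed the thresholds. At an unadjusted p below 0.05, 5 were lower and 1 was higher, where 11.6% and 10.6% of all genes were. Groups were apart in 8 genes with mutants lower and in 1 with mutants higher, beside 14.2% and 13.3% of all genes, and the median log2 fold change was -0.16. *Rfxank*, a subunit of the RFX complex that binds the SXY module, was the highest, at 0.44 (adjusted p = 0.117), and *Irf8*, a factor of macrophages and microglia, the lowest, at -0.54 (adjusted p = 0.221). The most abundant of the list were the receptor chain *Ifnar2* (-0.28, adjusted p = 0.164) and the NF-kB subunit *Rela* (-0.23, adjusted p = 0.226).

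The smallest adjusted p-values in that list were those of *Ifngr1*, *Irf1* and *Nfkb1*, which were picked out after their values had been seen. *Irf1*, which binds interferon-type elements of class I promoters, had a scaled TPM of 5.57, 5.03 and 4.94 in WT mice, against 3.45, 3.73 and 3.28 in *Npc1*-/- samples, with a log2 fold change of -0.51 (adjusted p = 0.0628). *Ifngr1*, the ligand-binding chain of the interferon gamma receptor, was at 14.0, 13.1 and 12.1 in WT mice, against 8.41, 9.47 and 9.32 in *Npc1*-/- samples (-0.50, adjusted p = 0.0580). *Nfkb1* was at -0.44 (adjusted p = 0.0714). In these 3 genes every mutant lay below every WT mouse, as in 14.2% of all genes.

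Of the other class I heavy chains, 12 of 19 were tested and none passed the thresholds. At an unadjusted p below 0.05, 3 were lower and 0 higher, where 11.6% and 10.6% of all genes were. The median log2 fold change was -0.14. *Fcgrt*, the heavy chain of the neonatal Fc receptor, was the lowest, with a scaled TPM of 39.3, 33.2 and 33.4 in WT mice, against 17.4, 22.4 and 23.5 in *Npc1*-/- samples (-0.73, SE 0.14, adjusted p = 0.0546, limma). Its groups do not overlap. In this list groups were apart in 3 genes with mutants lower and in 1 with mutants higher, beside 14.2% and 13.3% of all genes. *H2-T23*, the non-classical Qa-1 molecule, was the most abundant after *Fcgrt*, at -0.22 (adjusted p = 0.684), and *H2-Q6* was the highest, at 0.59 (adjusted p = 0.269). *H2-M3*, whose promoter also holds the spaced TGACG and ATTGG, was at -0.46 (adjusted p = 0.147).

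The partners of peptide loading in the endoplasmic reticulum, 11 genes, held none past the thresholds, with a median log2 fold change of -0.13. At an unadjusted p below 0.05, 1 was lower and 0 higher, where 11.6% and 10.6% of all genes were. *Calr* and *Canx*, the chaperones of the folding heavy chain, were the most abundant, at -0.02 (adjusted p = 0.977) and 0.21 (adjusted p = 0.291), and *Canx* was also the highest. *Erap1*, which trims peptides in the endoplasmic reticulum, was the lowest, at -0.40 (adjusted p = 0.380). The 3 ordinary catalytic subunits *Psmb5*, *Psmb6* and *Psmb7* were at 0.04, 0.08 and 0.10, and none passed. At an unadjusted p below 0.05 there were 0, where 22.2% of all genes lay below that value.

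The 16 other proteasome genes likewise held none past the thresholds, with a median of 0.03. They held 0 at an unadjusted p below 0.05, where 22.2% of all genes lay below that value. Their values ran from -0.20 for *Psme1*, a subunit of the interferon-inducible activator PA28, to 0.20 for *Psmb1*, and the most abundant, *Pomp* and *Psmb2*, were at 0.08 and -0.0074. Class II presentation, the pathway of professional antigen-presenting cells, had 6 of 10 genes tested and none past the thresholds (0 at an unadjusted p below 0.05), with all 6 estimates below 0 (median -0.17). *Cd74*, the invariant chain, was the lowest and most abundant (-0.28), and *H2-DMa* was the highest and the next in abundance (-0.01).

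Markers of several cell types other than oligodendrocytes lay lower in *Npc1*-/- samples of this preparation. In bulk samples, fewer cells of a type and less RNA per cell cannot be told apart. Of 12 microglia markers, 11 were lower in *Npc1*-/- samples, 1 was called (*Tmem119*, -1.44, adjusted p = 0.0442) and the median was -0.81, where 0.413% of all genes were called lower. Of 6 perivascular macrophage markers, 4 were called lower (*Mrc1*, *Cd163*, *F13a1* and *Cbr2*, log2 fold changes from -2.29 to -1.48), with a median of -1.52. The summed scaled TPM of the microglia markers was 267 to 418 in WT and 133 to 243 in *Npc1*-/- samples, with *Npc1*-/- replicate 1 the lowest at 133. The summed perivascular macrophage markers were at 18.8 to 31.9 in WT mice, against 5.19 to 7.07 in *Npc1*-/- samples.

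Endothelial markers, whose cells carry class I genes at high levels, held none called among 10, with all 10 lower (median -0.75) and groups apart in 9, where 14.2% of all genes were apart in that direction. Their sum was 958 to 1128 in WT and 495 to 794 in *Npc1*-/- samples, and replicate 1 was again the lowest mutant, at 495. None of 7 mural cell markers (median -0.85), 8 astrocyte markers (median -0.58, with *Gfap* highest at 1.01), 8 neuron markers (median 0.19) or 10 oligodendrocyte lineage markers (median 0.16) was called. At an unadjusted p below 0.05 there were 9 endothelial and 6 mural markers lower, 4 astrocyte markers lower and 1 higher, 1 neuron marker higher and 1 oligodendrocyte marker higher, beside 11.6% lower and 10.6% higher over all genes. Of 6 ependymal and choroid plexus markers, *Rarres2* was called lower (-0.77, adjusted p = 0.0364), with a median of -0.40. None of 10 T, NK and B cell markers was expressed enough to be tested, *Cd8a* was at 0 in all 6 samples, and their sum was 1.11 to 1.58 in WT and 0.880 to 1.07 in *Npc1*-/- samples. The calls of the related and marker lists moved with the mice used, from 6 with all mice to 0 without WT replicate 3 or without *Npc1*-/- replicate 2. There were 2 without WT replicate 1, WT replicate 2 or *Npc1*-/- replicate 1, and 19 without *Npc1*-/- replicate 3. Leaving out a mouse also lowers the power of the fit. The part of these cell types in the values of the class I genes was not tested.

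**Figure D5:**
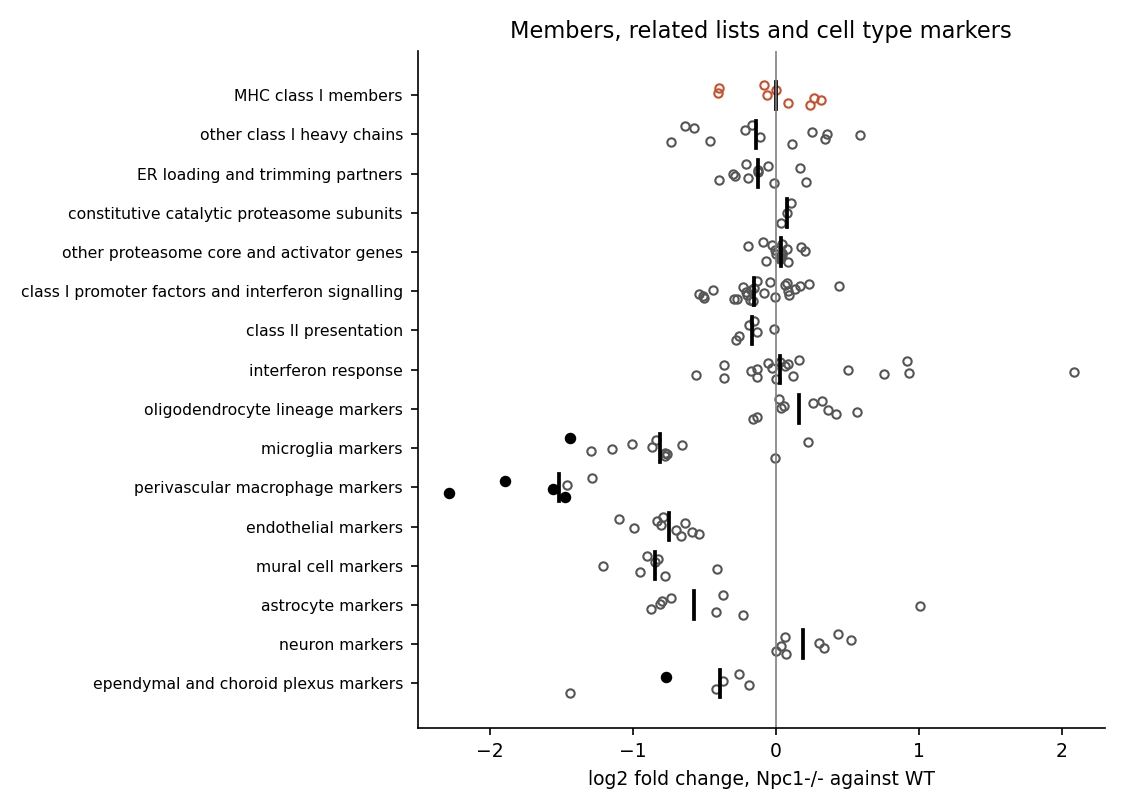
Log2 fold change, Npc1-/- against WT, of each tested gene of the class I group (orange) and of the other lists (grey), with the list median as a black bar and genes past the thresholds filled in black. The class I genes lie around 0, while microglia, perivascular macrophage, endothelial and mural markers lie mostly below 0.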

How the data were processed

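Gene expression was measured by poly(A) RNA-seq in O4-purified cells of 3 WT and 3 *Npc1*-/- biological replicates, with groups and replicate numbers taken from the sample titles. The authors deposited TPM and FPKM for 55492 genes on GRCm38. The submitters' processing notes list cutadapt 2.3, STAR 2.7.8a and RSEM 1.3.3, whereas the paper's methods name bbduk, featureCounts and DESeq2, so which tools made the values is uncertain, and the use of strand is not given in the sources used here. TPM was divided by median-of-ratios size factors over 18690 genes above 0 in every sample, and log2(scaled TPM + 0.5), which understates changes of low genes, was fitted with limma 3.58.1 (R 4.3.3, eBayes with trend) over the 15245 genes whose mean TPM reached 0.5. P-values are two-sided with Benjamini-Hochberg adjustment over all genes, and a call needs an adjusted p under 0.05 with a log2 fold change of 0.1 or more in size. TPM is no count, so no count model was run.

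Members and lists were chosen with earlier results of these data known. Named are the 10 members, *Npc1* and, per related list, called genes, the highest and lowest log2 fold change and the 2 most abundant; of marker lists, mainly called genes. *Irf1*, *Ifngr1*, *Nfkb1* and *H2-M3* lie outside this rule and were added with their values in view. Fragments were estimated from FPKM steps of single-transcript genes, and intervals elsewhere cover the spread between mice. Positions came from GENCODE M21, sequences from RefSeq. Python 3.11.15 was used. The fit and the depth estimate were tested on simulated data. Alternatives were FPKM, TPM as deposited, quantile normalization, pseudocounts, filters, limma without trend or robust, chromosomes X, Y and MT left out, the replicate block and each mouse left out.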

Additional observations from a re-analysis of the deposited data

How the results depend on the processing

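No gene of the class I group passed the thresholds under any of the 17 alternatives, so the count stayed at 0. The lowest adjusted p-values were 0.0789 for *H2-K1* and 0.0865 for *Psmb10* without *Npc1*-/- replicate 1 and 0.0898 for *Tap2* on TPM as deposited. On TPM as deposited, where the median of all genes shifted to -0.33, the estimates of *H2-D1*, *H2-K1*, *B2m* and *Psmb10* turned to -0.29, -0.055, -0.13 and -0.10, which relative to that median are 0.04, 0.27, 0.19 and 0.23. With 1 mouse left out, the fold change ranged from -0.25 to 0.066 for *Tapbp*, from -0.21 to 0.068 for *Psmb8*, from -0.15 to 0.21 for *Tap1*, from -0.67 (without WT replicate 3) to -0.22 (without WT replicate 2) for *Psmb9*, from 0.0034 (without WT replicate 3) to 0.21 for *H2-D1*, from 0.11 to 0.42 for *B2m*, from 0.17 to 0.50 for *H2-K1*, from -0.46 to -0.28 for *Tap2* and from 0.20 to 0.38 for *Psmb10*. The highest value was that without *Npc1*-/- replicate 1 for every tested member but *Psmb9*. The difference in the *Psmb8* share ranged from -1.67 to 0.177 percentage points. *Tap1* and *Psmb9* could not be fitted at a mean TPM of at least 5.

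All genes called numbered 124 and moved to 924 on TPM as deposited (54 higher, 870 lower, against 61 and 63), 239 with quantile normalization, 21 without a filter, 447 at a mean TPM of at least 5 and 42 without trend; with 1 mouse left out the count ran from 5 (without *Npc1*-/- replicate 2) to 477 (without *Npc1*-/- replicate 3). Called genes of the related and marker lists, 6 in all, moved to 42, 11, 1 and 19 under the first 4 of these settings, and to between 0 and 19 with 1 mouse left out. The cause was not tested. Replicate numbers are shared between genotypes, and the labels do not say what the numbers mark. The same-number correlations of deviations from the group means were 0.414, 0.0602 and 0.326, and each sample correlated best with its own number. What same-numbered samples have in common was not tested, and the main fit did not use the numbers. With the replicate block, 2011 genes, 40 list genes and 0 class I genes were called. Low depth limits *Nlrc5* and *Psmb9* most.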
